A study of Homo sapiens with 12 samples.

Results

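The genes described here encode the proteins of the cytosolic ribosome. They were taken from the gene symbols of the count tables by name alone: RPL or RPS followed by a number and, where present, A or X, together with RPLP0, RPLP1, RPLP2 and RPSA. This gave 77 genes of 55765 symbols, 46 for the large subunit and 31 for the small subunit. A ribosome holds 1 copy of nearly every such protein, the stalk proteins RPLP1 and RPLP2 being exceptions, and cells make the proteins in step with ribosomal RNA. Most mRNAs of this family start with a run of C and T bases, the 5′ terminal oligopyrimidine (TOP) tract, through which mTORC1 and the RNA-binding protein LARP1 control their translation and their storage when amino acids are scarce. An RNA-seq count measures the amount of such an mRNA and not its translation.

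The cells were Hs 578T, a triple-negative breast cancer (TNBC) line, transduced with a lentiviral vector for GFP or for full-length NRF2, the transcription factor of the antioxidant response that the gene NFE2L2 encodes. They were grown for 8 h in medium with 0.8 mM l-cystine (with Cyss) or in the same medium without it (w/o Cyss), and 3 libraries were sequenced for each of the 4 groups. Both media held the same serum, methionine and glutamine, the GFP cells also carried a viral vector, and no source states that the 3 libraries of a group came from separate cultures, so that p-values measure the spread between these libraries. The label of the cells is epithelial. Of 9 epithelial genes, EPCAM, KRT19, CLDN3 and CLDN7 had at most 3.29 normalized counts in any of the 12 libraries and CDH1, CLDN4 and OCLN at most 21.98, whereas the keratins KRT18 (773 to 1473) and KRT8 (151 to 233) were detected in each, and the mesenchymal gene VIM had at least 142640. The sum over the 9 genes was 949 to 1269 with Cyss and 1346 to 1705 w/o Cyss, and its part in the results was not tested. In bulk RNA a lower count can come from fewer cells that carry an mRNA or from less of it per cell, and these cannot be told apart.

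Reads counted on genes ranged from 27334061 to 44734611 per library, of which the 77 genes took between 1.44 and 1.89% once rRNA genes were left out. NFE2L2, the targeted gene, had 3647 to 3842 normalized counts in the GFP cells with Cyss and 4501 to 4655 w/o Cyss, against 6599 to 6940 and 7401 to 8396 in the NRF2 cells, in the order of the labels. Within each group the libraries differed by more than counting noise, so no library was a second copy of another. The 3 libraries of NRF2 cells w/o Cyss stood apart from each other in a way that touches each comparison below that uses them. Their share of reads on ribosomal protein genes was 1.44% in library 1, 1.58% in library 2 and 1.70% in library 3. Library 1 also had the highest share of reads outside genes, 7.84% against 5.82 to 6.69% in the other 11, and the lowest share of reads that mapped to more than 1 place, 6.08%. The part of these shares in the results was not tested.

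The start regions of some of the genes are shown because the TOP tract is the sequence that the family has in common. RefSeq start regions on GRCh38.p14, running from 250 bases before the annotated start to 50 bases after it, were found for 62 of the 77 genes. Of these, 54, or 87.1%, held a run of at least 8 bases made only of C and T within 10 bases of the annotated start, on the strand of the gene, against 18.8% of all 27305 symbols in the same table. The runs had a median length of 12 bases and reached 25. Windows of 30 bases are given 5′ to 3′ with the run in capitals, for genes with the lowest log2FC or a tested difference in the comparisons below and for RPL28, whose log2FC was above 0.
RPL39, chrX:119791610-119791639, minus strand: cgccagCTTCCCTCCTCTTCCTTTCTCCgc
RPS27A, chr2:55232676-55232705, plus strand: gcggcgTTCTTCCTTTTCgatccgccatct
RPSA, chr3:39406713-39406742, plus strand: cgcctgTCTTTTCCgtgctacctgcagagg
RPL27, chr17:42998423-42998452, plus strand: gaagtgTCCTTCTTTCCTTTTTgctggtag
RPS12, chr6:132814562-132814591, plus strand: atgaggCCTCTTTCCCTgccgccgccgagt
RPS23, chr5:82278336-82278365, minus strand: gcggtgCTTCTCTCTTTCgctcaggcccgt
RPS21, chr20:62387094-62387123, plus strand: tagctgCTTCCTTTCTCTCTCgcgcgcggt
RPLP2, chr11:809957-809986, plus strand: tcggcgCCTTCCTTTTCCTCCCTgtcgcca
RPL28, chr19:55385921-55385950, plus strand: ccctcgCCTTCCTCTTTCCgtctcaggtcg
The run in RPL39 is 22 bases long and that in RPSA is 8 bases long, so genes among the lowest in log2FC differ in the length of this run. The 8 matched genes without such a run near the annotated start were RPL12, RPL3, RPL32, RPL36, RPL6, RPS29, RPS3A and RPS4X. The base at which the mRNAs of these cells begin was not measured, so these 8 are not shown to lack a TOP tract.

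Although the proteins are needed in nearly equal numbers, the level of their mRNAs per length of transcript spread widely. Per kb of the median coding transcript in GENCODE 44 on GRCh37, the build of the files, the mean normalized count over the 12 libraries was highest for RPL8 (44614 per kb), RPL30 (33279) and RPL11 (21573) among large subunit genes. Among small subunit genes it was high for RPS19 (29245 per kb) and RPS20 (23148). The lowest of the large subunit were RPL21 (242 per kb), RPL36A (393) and RPL39 (589), and RPS26 (130 per kb) and RPS28 (280) were low for the small subunit. These ranks depend on the annotated lengths. The median length was 1330 bases for RPS28, whose protein has 69 residues, and 1140 bases for RPS26, with 115 residues. If the transcripts in use are shorter, such levels per kb are too low. Ribosomal protein mRNAs are a frequent source of processed copies in the genome, and reads that match a copy equally well are not counted. The tables list 800 pseudogene symbols for 74 of the 77 genes, which hold 21.1% of the reads on genes and pseudogenes together. For 10 genes the pseudogenes held more reads than the gene, among them RPS3A with 89.8%, RPL39 with 88.2% and RPS7 with 63.3%. Of the 77 genes, 8 share exon sequence with a gene on the same strand and 15 with a gene on the opposite strand, which unstranded counting does not separate.

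In GFP cells, the first question was whether 8 h w/o Cyss altered these mRNAs. The 77 genes lay slightly above their level with Cyss, with a median log2FC of 0.07 (5.10% higher) for the large subunit and 0.07 (4.64% higher) for the small subunit, against 0.0015 for all 17452 genes tested. Of the 77, 70 had a log2FC above 0, but no gene passed the test. With edgeR's quasi-likelihood test, 0 were past an adjusted p of 0.1 in either direction, 12 were higher and 0 lower at an unadjusted p under 0.05 (1486 and 1674 of all 17452 genes), and DESeq2 also called 0. Over all genes, 3.11% were called higher and 2.81% lower at the adjusted p. DEGs, which also needed a log2FC of more than 0.32 in size, made up 1.57% of all genes in the higher direction and 0.533% in the lower, and 0 of the 77 were DEGs. All 3 libraries w/o Cyss were above all 3 with Cyss for 9 of the 77 genes (among them RPL23A, RPL38, RPL41, RPL5, RPS23, RPS24, RPS4X and RPS6), beside 11.5% of all genes, and for 0 genes were they all below (12.1% of all genes).

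The highest log2FC values in this comparison were those of RPL28 (0.15 ± 0.06, SE, n = 3 libraries per group), RPL8 (0.13 ± 0.05) and RPL36 (0.13 ± 0.05) for the large subunit, and those of RPS27 (0.12 ± 0.09) and RPS15 (0.11 ± 0.07) for the small subunit. RPL8 is part of the peptidyl transferase centre, and its adjusted p in edgeR's test was 0.196. The lowest were RPL21 (-0.12 ± 0.11), RPL15 (-0.03 ± 0.03) and RPL17 (-0.01 ± 0.05), and RPS26 (-0.06 ± 0.10), RPS3A (-0.06 ± 0.08) and RPS27A (-0.01 ± 0.04). RPS6, the small subunit protein that S6 kinases phosphorylate, had 17414, 18800 and 18245 normalized counts with Cyss and 19536, 19332 and 19494 w/o Cyss. The libraries w/o Cyss were all above those with Cyss, and its log2FC was 0.10 ± 0.04 (adjusted p = 0.158, edgeR). Leaving out library 1 of the GFP cells w/o Cyss gave 4 genes past the adjusted p and leaving out library 2 with Cyss gave 1. The share of all genes called in those fits is not given here.

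In NRF2 cells the same removal of Cyss went with lower values. The median log2FC was -0.09 for the large subunit and -0.12 for the small subunit, against -0.01 for all 17266 genes, and 73 of the 76 genes tested were below 0. Of these, 14 fell at an adjusted p under 0.1, as did 13.8% of all genes, so their share of 14 in 76 was only slightly above the background. They included RPL17, RPL27, RPL35, RPL39 and RPLP2 of the large subunit and RPS12, RPS13, RPS19, RPS20, RPS21, RPS23, RPS27A and RPSA of the small subunit. RPL28 rose, with a log2FC of 0.14 ± 0.06 (adjusted p = 0.0848, edgeR), against 15.2% of all genes that were called higher. The 3 libraries w/o Cyss were all below the 3 with Cyss for 12 of the genes (18.5% of all genes) and all above for 0 (19.3%).

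RPL39 was the only DEG among them, and it was lower, where 5.14% of all genes were lower DEGs and 6.81% higher ones. RPL39 is a short protein that lines the exit tunnel for the growing chain. Its normalized counts were 239, 213 and 243 with Cyss and 164, 173 and 202 w/o Cyss, so that the groups did not overlap, and its log2FC was -0.37 ± 0.10 (adjusted p = 0.0199, edgeR). With the reads on its listed pseudogenes added to its own, the log2FC was -0.09 with an adjusted p of 0.281, so the call rests on the reads assigned to the gene itself. Without library 1 of the NRF2 cells w/o Cyss its log2FC was -0.30 and 0 genes were DEGs, and 4 genes were without library 3 w/o Cyss, 3 without library 1 with Cyss and 2 without library 3 with Cyss. The count of 14 depended on single libraries: it was 56 without library 3 w/o Cyss, 6 without library 2 w/o Cyss, and 5, 6 and 9 without libraries 1, 2 and 3 with Cyss. The share of all genes called in these fits is not given here, so the counts do not single out these genes. The call of RPL28 was lost without library 3 w/o Cyss or libraries 2 or 3 with Cyss.

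With Cyss present, NRF2 cells and GFP cells had nearly the same values of these mRNAs. The median log2FC of NRF2 over GFP cells was -0.01 for either subunit, against -0.0039 for all 17449 genes, and 29 genes were above 0 and 48 below. No gene passed the test: edgeR called 0 higher and 0 lower at an adjusted p of 0.1, with 4 and 4 at an unadjusted p under 0.05 (1820 and 1501 of all 17449 genes), and DESeq2 called 0 higher and 1 lower, RPL22. Over all genes, 4.15% were called higher and 2.28% lower, and DEGs made up 1.36% and 0.201%. Groups did not overlap for 1 gene that was higher in NRF2 cells, RPLP2 (12.6% of all genes), and for 5 that were lower, RPL22, RPL24, RPL34, RPL6 and RPS25 (12.1%).

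The extremes with Cyss were RPLP2 (0.11 ± 0.04), RPL37 (0.10 ± 0.05) and RPLP1 (0.09 ± 0.05), and RPS15 (0.16 ± 0.07) and RPS19 (0.10 ± 0.04), on the higher side. RPLP1 and RPLP2 form the stalk that recruits elongation factors. On the lower side they were RPL22 (-0.14 ± 0.05), RPL7A (-0.12 ± 0.05) and RPL11 (-0.11 ± 0.04), and RPS25 (-0.08 ± 0.04), RPS27A (-0.08 ± 0.04) and RPS26 (-0.07 ± 0.10). Without library 2 of the GFP cells with Cyss, 7 genes were called higher and 1 lower, and without library 1 of the GFP cells with Cyss, 1 and 3. Without library 3 of the NRF2 cells with Cyss, 1 was called higher. Shares of all genes called in these fits are not given here.

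The clearest difference was between NRF2 and GFP cells w/o Cyss, in which most of the genes had lower counts in NRF2 cells. Of the 77 genes, 56 fell at an adjusted p under 0.1, 33 of 46 for the large subunit and 23 of 31 for the small subunit, and 0 rose, where 14.7% of all genes tested were called lower and 14% higher. The size was small and alike for most: the median log2FC was -0.19 (a change of -12.4%) for the large subunit and -0.20 (a change of -13.1%) for the small subunit, against -0.02 for all 17297 genes. The quartiles of the 77 values were -0.22 and -0.15, and 74 were below 0. All 3 NRF2 libraries were below all 3 GFP libraries for 42 of the 77 genes, 26 of the large and 16 of the small subunit (18.9% of all genes), and for 0 genes were they all above (19.4%). This comparison and that of GFP cells w/o against with Cyss share the 3 libraries of GFP cells w/o Cyss.

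**Figure D1:**
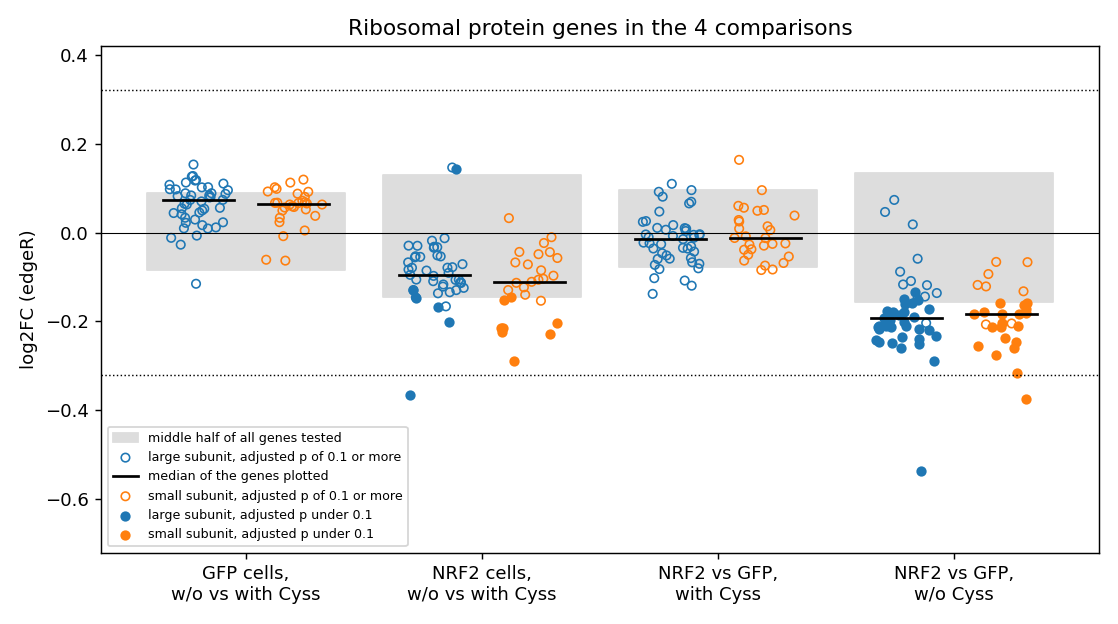
log2FC of 73 ribosomal protein genes in the 4 comparisons, by subunit; filled points had an adjusted p under 0.1, black bars are medians of the genes plotted, the grey band holds the middle of all genes tested from the lower to the upper quartile, and dotted lines mark 0.32 in size. In NRF2 against GFP cells w/o Cyss most points lie below the grey band, with RPL39 and RPS27A under the lower dotted line.

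Only 3 of the 77 were DEGs in this comparison, all lower, where 4.09% of all genes were lower DEGs and 5.98% higher ones. RPL39 had 272, 274 and 230 normalized counts in GFP cells w/o Cyss and 164, 173 and 202 in NRF2 cells. No NRF2 library reached the lowest GFP library, and the log2FC was -0.54 ± 0.11 (adjusted p = 0.00568, edgeR). With the reads on its pseudogenes added it was -0.24 with an adjusted p of 0.00909, lower still but no longer a DEG. RPS27A, made as a fusion of ubiquitin and a small subunit protein, had 4326, 4272 and 4304 in GFP cells and 3022, 3361 and 3652 in NRF2 cells. The GFP libraries were nearly equal and all above the NRF2 libraries, and the log2FC was -0.38 ± 0.06 (adjusted p = 0.00174, edgeR). The third had too few reads for its fold change to be read.

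RPSA, a small subunit protein also known as a laminin receptor, was just short of a DEG. It had 8823, 9216 and 8902 normalized counts in GFP cells w/o Cyss and 6339, 7095 and 8396 in NRF2 cells, with a log2FC of -0.317 ± 0.08 (adjusted p = 0.0156, edgeR), and the 3 NRF2 libraries spread widely. RPL27, a large subunit protein, had 9227, 9213 and 9147 against 6675, 7945 and 8169, and fell by 0.29 on the log2 scale (SE 0.06, adjusted p = 0.00957, edgeR). RPS20 had 15957, 17037 and 16289 against 12504, 13862 and 15191, a log2FC of -0.26 ± 0.06 (adjusted p = 0.0140). In each of these genes library 1 of the NRF2 cells was the lowest and library 3 the highest, closest to the GFP cells. With 3 libraries against 3, an exact two-sided permutation test cannot give a p below 0.1, and it gave 0.1 for RPL39, RPS27A, RPSA, RPL27 and RPS20.

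A further 21 genes did not pass the test. RPL28 had 7939, 9310 and 9096 normalized counts in GFP cells w/o Cyss and 8865, 8686 and 9901 in NRF2 cells, and the groups overlapped (log2FC 0.05 ± 0.07). RPL36A (0.07 ± 0.08) and RPL21 (0.02 ± 0.13) were the other genes above 0, and for the small subunit RPS26 (-0.07 ± 0.12), RPS15 (-0.07 ± 0.08) and RPS27 (-0.09 ± 0.11) were the closest to 0. Next to RPL39 and RPL27, the lowest of the large subunit was RPL26 (-0.26 ± 0.06), an exit site protein that also binds the p53 mRNA.

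Some genes are given here by role, several of which are also named for their values elsewhere. For the stalk, RPLP0 (-0.18 ± 0.06, adjusted p = 0.0520, edgeR) and RPLP2 (-0.15 ± 0.06, adjusted p = 0.0776) fell, and RPLP1 did not pass (-0.15 ± 0.07, adjusted p = 0.150). RPL5 and RPL11, which carry 5S rRNA into the ribosome and bind MDM2 when assembly is disturbed, both fell, with log2FC values of -0.22 ± 0.05 (adjusted p = 0.0120) and -0.21 ± 0.06 (adjusted p = 0.0310). RPS6 had 19536, 19332 and 19494 normalized counts in GFP cells w/o Cyss and 15662, 17890 and 18296 in NRF2 cells, a log2FC of -0.18 ± 0.06 (adjusted p = 0.0360). RPS3, which lies at the mRNA entry channel, had a log2FC of -0.18 ± 0.06 (adjusted p = 0.0438).

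The libraries that made up the difference were unequal. The count of 56 was 69 without library 3 of the NRF2 cells w/o Cyss, 31 without library 1 and 30 without library 2. It was 36 without library 3 and 17 without library 2 of the GFP cells w/o Cyss, where 6.38% of all genes were then called lower. For the other fits the share of all genes is not given here. The median log2FC stayed between -0.24 and -0.12 for the large subunit and between -0.25 and -0.13 for the small subunit in all these fits. RPL39 and RPS27A kept an adjusted p under 0.1 in each of them, of at most 0.0376 and 0.0150 in edgeR's test. The count of DEGs was 1 without library 1 of the NRF2 cells w/o Cyss, 11 without library 3 and 5 without library 1 of the GFP cells w/o Cyss.

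**Figure D2:**
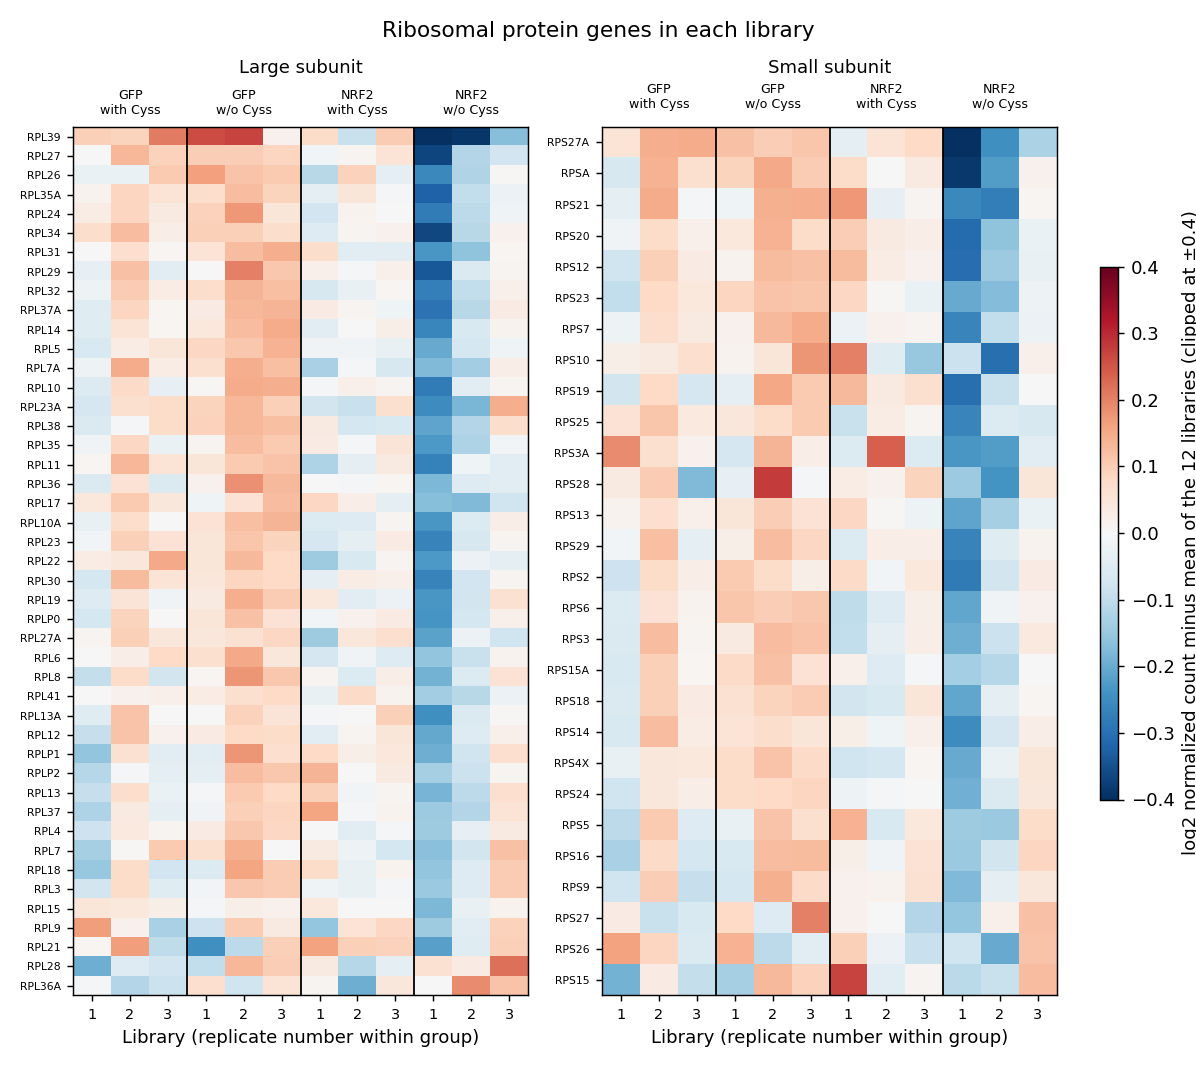
Each row is a gene (73 are shown) and each column a library, coloured by log2 normalized count minus the gene's mean over the 12 libraries; rows are ordered by the difference between NRF2 and GFP cells w/o Cyss. Library 1 of the NRF2 cells w/o Cyss is low in nearly every row (median over all genes of a subunit -0.21 for either) and library 3 is not (median 0.02).

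The same unevenness was seen in the plain share of reads, which needs no test across genes. Large subunit genes took 1.08, 1.16 and 1.12% of the counted reads in GFP cells w/o Cyss and 0.887, 0.971 and 1.04% in NRF2 cells w/o Cyss, against 1.02 to 1.12% in GFP cells and 1.05 to 1.08% in NRF2 cells with Cyss. Small subunit genes took 0.693, 0.732 and 0.714% in GFP cells w/o Cyss and 0.556, 0.605 and 0.660% in NRF2 cells w/o Cyss. The 3 NRF2 libraries w/o Cyss were below all 3 GFP libraries w/o Cyss for both subunits. The ratio of small to large subunit reads was between 0.623 and 0.633 in the NRF2 cells w/o Cyss and between 0.633 and 0.648 in the other 9 libraries.

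**Figure D3:**
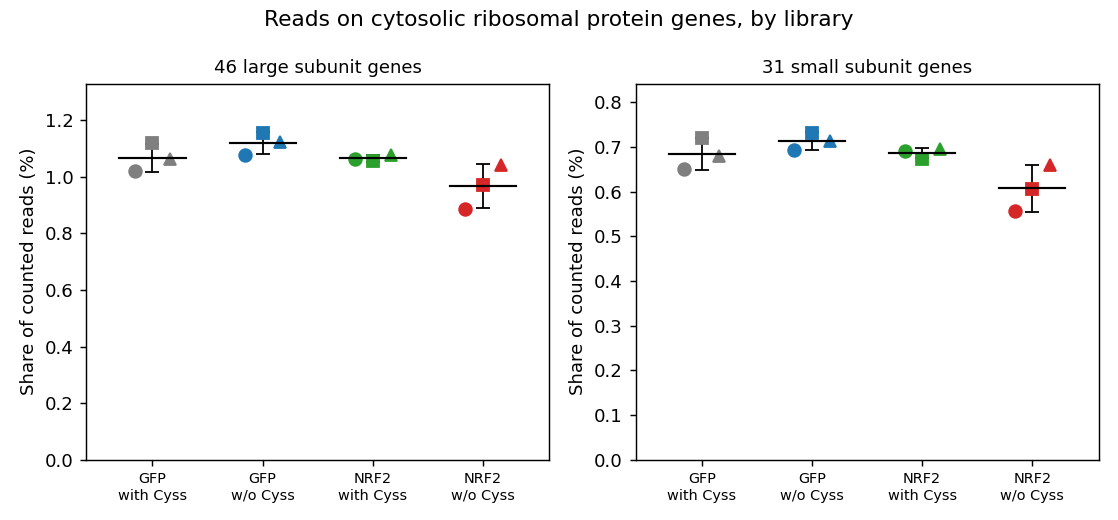
Share of counted reads (rRNA genes left out) on large and small subunit genes in each library, with the mean and SD of 3 libraries. The lowest points of either panel are libraries 1 and 2 of the NRF2 cells w/o Cyss, and library 3 lies close to the groups with Cyss.

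Whether removal of Cyss acted differently in NRF2 and in GFP cells was asked with an interaction term fitted to all 12 libraries. The log2 difference between the responses had a median of -0.16 for the large subunit and -0.18 for the small subunit, against -0.01 for all 17674 genes, and 75 of the 77 values were below 0. Of the 77 genes, 16 had a lower response in NRF2 cells at an adjusted p under 0.1 and 0 a higher one, where 6.13% and 8.97% of all genes were called lower and higher. They were 6 of 46 large subunit genes (RPL5, RPL35, RPL36, RPL37, RPL39 and RPLP2) and 10 of 31 small subunit genes (among them RPS12, RPS13, RPS19, RPS20, RPS21, RPS23, RPS27A and RPSA). RPL39 had a difference of -0.42 ± 0.14 (adjusted p = 0.0581, edgeR), and with its pseudogene reads added it was -0.14 (adjusted p = 0.227). RPS27A had -0.28 ± 0.08 (adjusted p = 0.0318), and RPS20, a protein of the head of the small subunit, had -0.27 ± 0.08 (adjusted p = 0.0332). RPLP2 had 9007, 10059 and 9947 normalized counts w/o Cyss against 8522, 9187 and 8988 with Cyss in GFP cells, and 8411, 8685 and 9297 against 10130, 9230 and 9471 in NRF2 cells. It was thus higher on average w/o Cyss in GFP cells and lower in NRF2 cells, a difference of -0.25 ± 0.07 (adjusted p = 0.0402).

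The count of 16 moved strongly with single libraries. It was 52 without library 3 of the NRF2 cells w/o Cyss and 8 without library 1 or without library 2. It was 6 without library 1 and 8 without library 3 of the NRF2 cells with Cyss, 5, 26 and 10 without libraries 1, 2 and 3 of the GFP cells with Cyss, and 2 and 10 without libraries 2 and 3 of the GFP cells w/o Cyss. As the share of all genes called in these fits is not given here, the counts do not single out these genes. Among the 16, only RPS27A kept an adjusted p under 0.1 whichever library was left out, with a highest value of 0.0936 in edgeR's test.

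Related genes and the genes that handle ribosomal proteins were described with lists. Of 10 paralogs and ubiquitin fusions, 8 passed the filter, and in NRF2 against GFP cells w/o Cyss 6 fell and 1 rose, where 14.7% and 14% of all genes did. RPL39L, the paralog of RPL39, was a lower DEG with 498 ± 21.4 normalized counts in GFP cells and 397 ± 32.2 in NRF2 cells (SD, n = 3), a log2FC of -0.34 (adjusted p = 0.0100, edgeR). RPL7L1, a nucleolar relative of RPL7 that acts in assembly, was the one that rose, with a log2FC of 0.11 (adjusted p = 0.0860). In NRF2 cells w/o against with Cyss, 1 of the 8 rose and 2 fell, where 15.2% and 13.8% of all genes did.

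Other mRNAs known to have a TOP tract were listed under 18 symbols, of which 17 were in the tables. The symbol not found, RACK1, is another name of GNB2L1, which was found. In NRF2 against GFP cells w/o Cyss, 7 fell and 2 rose, against 14.7% and 14% of all genes, with a median log2FC of -0.09. Those that fell included TPT1 (-0.20, adjusted p = 0.0297, edgeR) and the initiation factor subunit EIF3E (-0.20, adjusted p = 0.0242). Those that rose were the elongation factor EEF2 (0.17, adjusted p = 0.0227) and the poly(A)-binding protein PABPC1 (0.14, adjusted p = 0.0615). EEF2 had 52735 ± 2129 normalized counts in GFP cells and 59800 ± 1009 in NRF2 cells (SD, n = 3). In NRF2 cells w/o against with Cyss 2 rose (15.2% of all genes), and the median difference between the responses was -0.03.

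A list of 13 chaperones, import receptors and nascent chain factors that handle ribosomal proteins held general factors as well as dedicated ones. In NRF2 against GFP cells w/o Cyss, 2 of the 13 rose and 2 fell, close to the 14% and 14.7% of all genes. All that were called are general factors. The importins IPO7 (log2FC 0.14, adjusted p = 0.0569, edgeR) and TNPO1 (0.19, adjusted p = 0.0402) rose, and both subunits of the nascent chain complex, NACA (-0.22, adjusted p = 0.0144) and BTF3 (-0.18, adjusted p = 0.0271), fell. Of 15 genes of mTORC1 and S6 kinase signalling, 4 rose and 2 fell, against the same 14% and 14.7%. LARP1, which binds the TOP tract, had 9132 ± 260 normalized counts in GFP cells and 10604 ± 678 in NRF2 cells w/o Cyss (SD, n = 3), a log2FC of 0.20 (adjusted p = 0.0198), and it rose in NRF2 cells w/o against with Cyss (0.33, adjusted p = 2.27e-04, a DEG). DDIT4, an inhibitor of mTORC1 signalling, was a lower DEG, with 2682 ± 89.4 and 1636 ± 64.5. The other gene of this list that fell was RHEB (-0.22, adjusted p = 0.0345, edgeR). The others that rose were LARP4 (0.21), RPTOR (0.17) and EIF4EBP2 (0.16). In GFP cells w/o against with Cyss, DDIT4, SESN2 and EIF4EBP1, all 3 restraints on mTORC1 or on cap-dependent translation, were higher DEGs, and so were these 3 and LARP1 in NRF2 cells.

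The log2FC values of NRF2 against GFP cells w/o Cyss were also set beside features of the genes, as a description. With a C and T run near the annotated start the median was -0.20 over 54 genes, without one -0.18 over 8, and where no start region was matched -0.19 over 15. The proteins are poor in cysteine: the median is 1.24% of residues against 2.02% over 19438 proteins in GENCODE, 15 of the 77 have none, and the highest share is 7.14%, in RPS27 and in RPS29. Genes for proteins without cysteine had a median log2FC of -0.21 (13 of 15 past the adjusted p), those with 1 to 3 cysteines -0.18 (29 of 41) and those with 4 or more -0.18 (14 of 21). Of all 77 genes 56 were past it, and 14.7% of all genes tested were called lower. The cysteine classes were not tested against each other. Where pseudogenes held more than 50% of the reads the median was -0.21 over 10 genes, and where they held under 5% it was -0.19 over 36 genes.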

How the data were processed

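RNA-seq was done on Hs 578T cells expressing GFP or NRF2, with or w/o Cyss, in 12 libraries. According to the methods and the labels, the authors prepared libraries with TruSeq RNA v2, aligned the single-end reads with TopHat 2.1.0 against hg19 and counted them with HTSeq 0.11.2 on exons, in intersection-nonempty mode, without strand and without counting reads that map to several places. The deposited values are raw counts per gene symbol. The annotation behind the symbols is not given in the sources used here. The 5 HTSeq counters and 523 rRNA genes, which the methods describe as removed but the files still list, were left out.

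For each of 4 comparisons, the 6 libraries were used in R 4.3.3. A gene was kept if its mean TMM-normalized count reached 10 in 1 of the groups, TMM factors were recomputed on them, and edgeR 4.0.16's quasi-likelihood test was applied with Benjamini-Hochberg adjustment over all genes. A gene was called at an adjusted p under 0.1, and a DEG also had a log2FC above 0.32 in size. The interaction used all 12 libraries. Errors of log2FC are SEs, and normalized counts printed per library are scaled over the 12 libraries. Symbols were matched by name to GENCODE 44 on GRCh37 for lengths, coding sequences and overlaps, and to RefSeq start regions. The figures were drawn with Python 3.11.15 and matplotlib 3.10.9. Simulated counts were put through the same steps, and nearly all genes given a change were recovered. The size of that change is not given here. The recovery therefore does not show how many differences as small as those described above would be found. With gene-wise dispersions the share of false calls was above the 0.1 that the adjusted p sets. This excess was largest in both pairwise comparisons with NRF2 cells w/o Cyss. The calls at this threshold may thus hold more false ones than it states.

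The genes and lists were chosen with earlier results of these data known. Genes are named if they were DEGs or passed the interaction, were among the 3 highest or lowest in log2FC or in level per length of their subunit, or had a role that the text states; some genes that this rule would name are not reported here and are included in counts and medians only. Of the lists, DEGs or the 2 genes with the largest log2FC are named, and the others of a small count, chosen after their values were seen. Alternatives were DESeq2 1.42.0 (size factors and Wald test), other scalings and filters, the replicate number as a block, all 12 libraries in a fit, rRNA genes kept and each library left out. Adding pseudogene reads and computing TMM before the filter were chosen after seeing the data.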

Additional observations from a re-analysis of the deposited data

Results flagged for a closer look

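The response to Cyss removal differed between NRF2 and GFP cells, by the interaction test of edgeR with an adjusted p under 0.1, for 16 of the 77 ribosomal protein genes, all with a lower response in NRF2 cells. Over all genes, 6.13% were called in this direction. For the large subunit, the log2 difference was -0.42 for RPL39, -0.25 for RPLP2, -0.22 for RPL36, -0.22 for RPL37, -0.21 for RPL35 and -0.18 for RPL5. For the small subunit, it was, among others, -0.30 for RPS19, -0.29 for RPSA, -0.28 for RPS12, -0.28 for RPS27A, -0.28 for RPS21, -0.27 for RPS20, -0.24 for RPS23 and -0.18 for RPS13. Leaving out library 2 of the GFP cells w/o Cyss left 2 of the 77 genes past the threshold, and leaving out library 3 of the NRF2 cells w/o Cyss gave 52. The shares of all genes called in those fits are not given here. The share of reads on the 77 genes was 1.44, 1.58 and 1.70% in the 3 libraries of NRF2 cells w/o Cyss, and the part of this spread in the differences was not tested.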

How the results depend on the processing

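In NRF2 against GFP cells w/o Cyss, the count of genes called lower (56) was between 49 and 65 under DESeq2's size factors, DESeq2's Wald test and the replicate block, but 3 when libraries were scaled by the sum over the 77 genes, with 2 called higher. That scaling sets the sum of the genes equal between libraries, which moved the median of all genes to 0.18 and the medians of the large and small subunits to -0.0050 and -0.0158. Likewise the subunit medians became 3.8e-05 and -0.0051 in GFP cells w/o against with Cyss, 0.0045 and -0.0207 in NRF2 cells, and 0.0117 and -0.0077 in the interaction. With it, 1 gene was called lower and 0 were DEGs in NRF2 cells, and 1 was called in the interaction. Scaling by library size only gave 48 called lower, 0 higher and 3 lower DEGs in NRF2 cells, 1 higher gene and DEG for NRF2 with Cyss, 5 lower DEGs w/o Cyss and 40 in the interaction. With no filter on low counts, 3 were called higher with 1 DEG in GFP cells, 22 lower with 2 DEGs in NRF2 cells, 2 higher (1 DEG) and 3 lower for NRF2 with Cyss, and 30 in the interaction.

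No source states whether libraries of the same replicate number belong together. Same-numbered libraries deviated together with correlations of -0.03 to 0.15, which with 3 libraries per group do not settle it. With the replicate block, 8 genes were called higher with 1 DEG in GFP cells, 30 lower in NRF2 cells, 1 higher (a DEG) and 1 lower for NRF2 with Cyss, and 28 in the interaction. At an adjusted p under 0.05, 0 genes were called higher in NRF2 cells and 6 in the interaction. For NRF2 with Cyss, DESeq2's Wald test called 1 lower, and TMM before the filter 1 higher (a DEG) and 1 lower.

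When libraries were left out singly, the counts called higher ran from 0 to 4 in GFP cells (DEGs 0 to 1), from 0 to 1 in NRF2 cells and from 0 to 7 for NRF2 with Cyss (DEGs 0 to 1), and those called lower from 5 to 56 in NRF2 cells (DEGs 0 to 4), from 0 to 3 for NRF2 with Cyss, from 17 to 69 w/o Cyss (DEGs 1 to 11) and from 2 to 52 in the interaction. The interaction's large subunit median ran from -0.23 to -0.10. The share of all genes called in each of these fits, and in the alternatives above, is not given here. Such counts therefore do not single out these genes. With 3 libraries per group and a median SE of 0.06 for a gene, log2 differences near 0.1 were mostly not detectable one by one.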
